A study of Homo sapiens with 3 samples.

Results

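The genes described here are the 2 tankyrases and the genes of the Wnt feedback loop around them, measured in KYSE150 cells, an established line from a human oesophageal squamous carcinoma. The set has 10 genes. TNKS and TNKS2 encode the tankyrases, RNF146 the ubiquitin ligase that acts on tankyrase-modified proteins, and AXIN1 and AXIN2 the axin scaffolds. ZNRF3 and RNF43 encode membrane ubiquitin ligases that remove Wnt receptors, LGR4 a receptor for R-spondins, CTNNB1 beta-catenin and TCF7L2 a TCF transcription factor. The set was chosen by name, with earlier results of these data known: TNKS2 and ZNRF3 were selected on their difference between the LOXL2 delta72 and LOXL2 WT arrays, and the others as genes of the same pathway. The values of that comparison are therefore a description only. All probe sets paired with a single one of these symbols were taken, which gave 37 of 49293 non-control probe sets.

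The study has 3 arrays, 1 for each condition. Cells received the empty vector (Control), a pcDNA3.1 plasmid for LOXL2 WT, or the same plasmid type for LOXL2 delta72, and RNA was extracted 48 h later. The labels do not say what the delta72 form lacks. LOXL2 is lysyl oxidase like 2, an amine oxidase of the extracellular matrix. The same parental line and growth medium served all conditions, and the share of cells that took up plasmid is not given in the sources used here. With 1 array per condition there was no replicate spread, so no test was made, and a level called higher or lower is so for this pair of arrays. Both differences from Control share the 1 Control array.

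In Wnt signalling, a complex built on axin marks beta-catenin for destruction until a Wnt ligand reaches its receptors, after which beta-catenin enters the nucleus and works with TCF factors. Tankyrases attach ADP-ribose chains to axin, RNF146 recognises these chains, and axin is then degraded, which favours beta-catenin. AXIN2, RNF43 and ZNRF3 are themselves induced by beta-catenin and TCF in many tissues and dampen the signal. R-spondins bind LGR receptors and draw ZNRF3 and RNF43 off the membrane, so that Wnt receptors stay in place.

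The start-site windows of TNKS2, LGR4 and RNF146 are shown because these genes had, with ZNRF3, the largest differences from Control in their brightest probe sets. They come from RefSeq on GRCh38.p14 and run 5′ to 3′ from 250 bases before to 50 bases after the annotated gene start. Capitals mark matches on either strand to CTTTG, the core of TCF and LEF sites, to ACGTG, the core of hypoxia response elements, or to CCAAT. The windows are TNKS2 at chr10:91798176-91798475 (plus strand), LGR4 at chr11:27472741-27473040 (minus strand) and RNF146 at chr6:127266432-127266731 (plus strand).
TNKS2: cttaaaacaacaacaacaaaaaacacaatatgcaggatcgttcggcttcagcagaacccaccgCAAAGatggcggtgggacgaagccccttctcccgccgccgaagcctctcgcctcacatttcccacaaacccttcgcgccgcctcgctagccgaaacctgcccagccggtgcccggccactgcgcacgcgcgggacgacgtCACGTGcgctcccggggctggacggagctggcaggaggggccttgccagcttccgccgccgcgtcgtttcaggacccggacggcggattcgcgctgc
LGR4: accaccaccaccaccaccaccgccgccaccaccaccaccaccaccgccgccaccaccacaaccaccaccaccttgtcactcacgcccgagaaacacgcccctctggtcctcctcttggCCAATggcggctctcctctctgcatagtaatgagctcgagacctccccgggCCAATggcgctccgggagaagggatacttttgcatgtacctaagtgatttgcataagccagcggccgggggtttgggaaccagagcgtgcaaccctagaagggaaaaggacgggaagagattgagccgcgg
RNF146: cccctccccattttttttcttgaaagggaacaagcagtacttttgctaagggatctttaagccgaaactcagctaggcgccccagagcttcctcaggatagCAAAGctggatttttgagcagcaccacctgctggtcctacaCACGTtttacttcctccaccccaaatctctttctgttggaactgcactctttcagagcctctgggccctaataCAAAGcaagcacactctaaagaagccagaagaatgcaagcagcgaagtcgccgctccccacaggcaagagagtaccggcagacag

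The TNKS2 window held the palindrome CACGTG, counted as overlapping matches to ACGTG on both strands, with its first base 47 bases before the start. The TNKS2 window also held 1 match to CTTTG. The LGR4 window held 2 CCAAT matches and no match to CTTTG. The RNF146 window held 2 matches to CTTTG and 1 to ACGTG. Another RNF146 window, at chr6:127266614-127266913 and not shown, held CACGTG as well. Over all 35116 windows of this table, 47.5% held CTTTG, 21.4% ACGTG and 34.6% CCAAT on either strand, so these matches are common. The longer TCF and LEF site CTTTGAT was in 2.62% of all windows and in 0 of the 11 windows of the 7 genes found in the table. TNKS, AXIN2 and ZNRF3 had no entry. A match describes letters in the window and shows no binding.

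The transfection was read first. The brightest of the 4 LOXL2 probe sets went from 7.46 (log2) in Control to 14.05 in WT and 14.06 in delta72, and 11718833_a_at and 11718834_at were higher on both LOXL2 arrays as well, by 5.16 and 2.69 with WT. LOXL2 probe set 11718832_a_at, the highest of them in Control, went the other way, at 8.81, 8.32 and 8.66 in Control, WT and delta72. Of the squamous epithelial markers KRT5, KRT14, DSG3, DSC3, CDH1, EPCAM and SFN, all 7 lay above the filter explained next, at 7.08 or more in Control and WT and at 6.95 or more in delta72. KRT14 was 1.5-fold or more lower on both LOXL2 arrays, by differences of -0.67 with WT and -0.66 with delta72, and DSC3 was at -0.53 and -0.86, and their part in the results was not tested. Further markers of that list, KRT6A, KRT17 and TP63, were not analysed here. Fibroblast markers lay above the filter in 1 of 6 genes, leukocyte markers in 2 of 4 and endothelial markers in 3 of 4, those above being PDGFRB, CD68, CD3E, PECAM1, VWF and KDR, while COL1A1, COL1A2, COL3A1, DCN, LUM, PTPRC, CD14 and CDH5 lay below it. The log2 of their summed level ranged over the arrays from 7.26 to 7.33 for fibroblast, from 8.66 to 9.15 for leukocyte, most of it CD68, and from 7.61 to 7.63 for endothelial markers. The leukocyte sum was highest on the Control array, and its part in the results was not tested. CD68 read 8.97, 8.44 and 8.65 in Control, WT and delta72, while PTPRC and CD14 read 2.83 and 3.56 in Control. Apart from CD68, the fibroblast, leukocyte and endothelial genes above the filter read from 5.55 (CD3E) to 6.08 (PDGFRB) in Control, close to the filter. The samples are an established line, so these sums describe genes and do not count cells of those types. In such bulk RNA, fewer cells expressing a gene and less RNA per cell cannot be told apart.

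Each gene is given by its brightest probe set, that of highest mean across the arrays. A gene was kept when that mean reached log2 5.27, a filter set at the 40th percentile over the non-control probe sets. This left 12232 of 18132 genes and 9 of the 10 described here. AXIN2 fell below. Differences of at least 1.5-fold (log2 0.58) were counted. The pooled SD of a difference over the probe sets of a gene was 0.17 between WT and Control, 0.15 between delta72 and Control, and 0.11 between the forms. It is an error between probes on the same arrays. Background probe sets differed by at most 0.29, 0.17 and 0.15 in the same comparisons, and the 9 hybridisation spike probe sets read lower than Control on both LOXL2 arrays, by a median of -0.16 with WT and -0.23 with delta72. The background probe sets read from 2.29 to 10.84 on the Control array, depending on their GC content, and this range holds the levels of every probe set of the 10 genes except the brightest of CTNNB1, so it is not known how far the others lay above background.

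**Figure D1:**
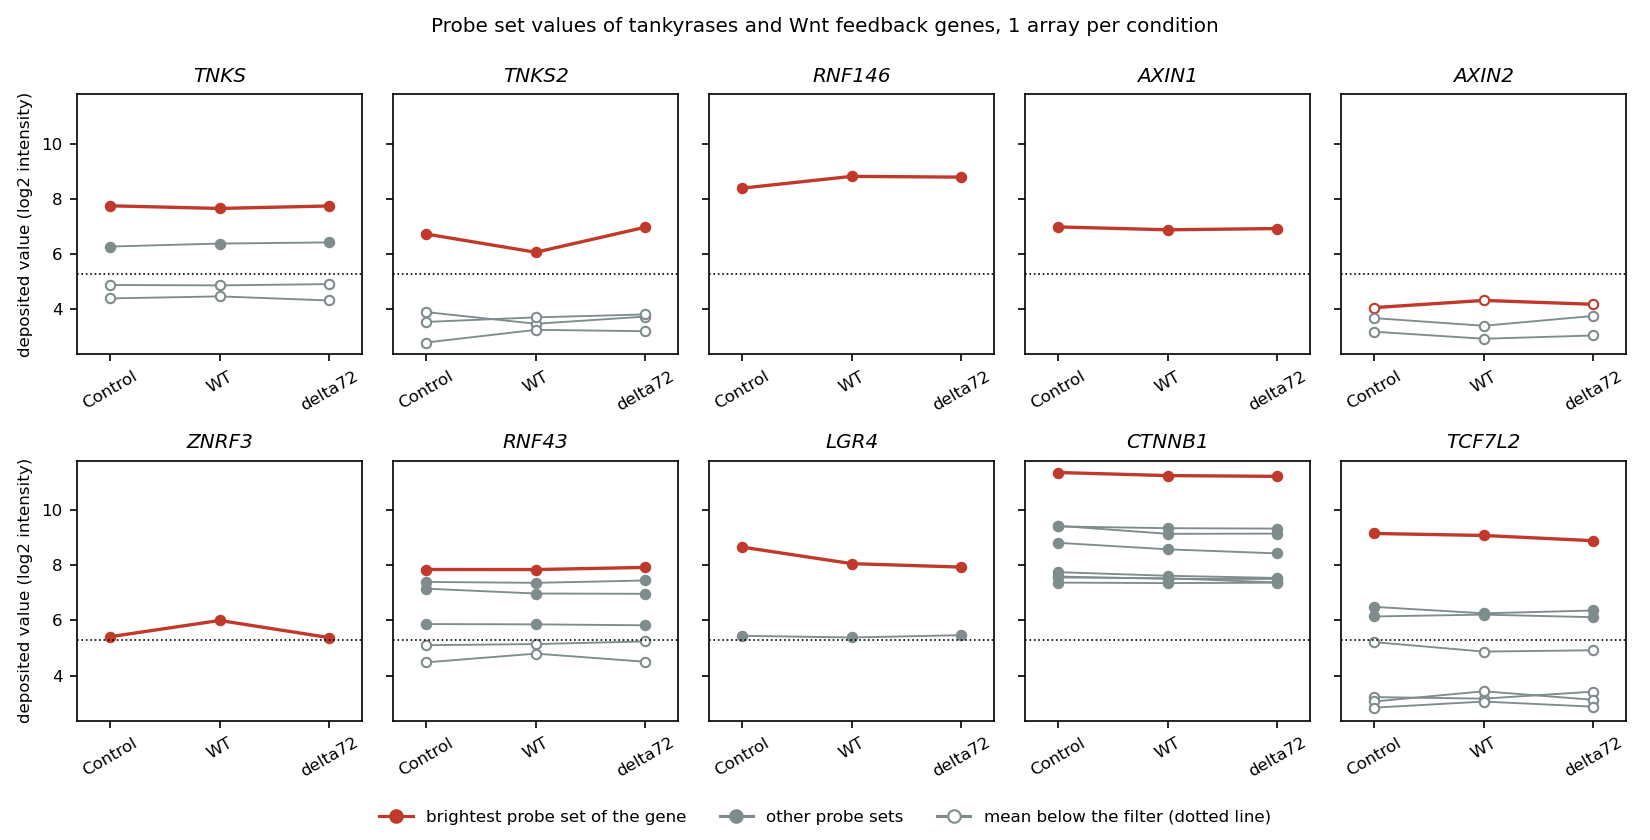
Deposited log2 intensity of every probe set of the 10 genes (vertical axis) on the Control, WT and delta72 arrays (horizontal axis). The brightest probe set of TNKS2 dips on the WT array to 6.07, that of ZNRF3 peaks there at 6.0, that of LGR4 falls from 8.66 to 8.06 and 7.93, and the open points of AXIN2 all lie below the filter at 5.27.

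TNKS2 had the widest spread of the set. Its brightest probe set, 11722462_a_at, read 6.73 in Control, 6.07 in WT and 6.97 in delta72. The WT array was low and the other arrays lay above it. The level was 0.66 lower than Control with WT (1.58-fold), 0.25 higher with delta72 (1.19-fold), and 0.91 higher with delta72 than with WT (1.88-fold). In the last comparison it ranked 4th highest of 12232 genes, just below EHF, an epithelial ETS transcription factor, at 0.92 and just above CARD17P at 0.89. These ranks are what brought TNKS2 into the set.

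The other TNKS2 probe sets did not repeat this order. The 3 of them all had means below the filter. Probe set 11757893_s_at read 3.90, 3.47 and 3.73 in Control, WT and delta72, with its lowest value on the WT array as well. Probe set 11722461_a_at read 3.54, 3.71 and 3.81, and 11722463_a_at read 2.79, 3.25 and 3.20, both lowest in Control. Between the forms the 3 dim probe sets differed by 0.26, 0.11 and -0.05. The median of the differences of all 4 probe sets was -0.13 with WT, 0.26 with delta72 and 0.18 between the forms, each under 1.5-fold, and with the median of their levels on each array TNKS2 lay 0.05 above Control with delta72. Differences past 1.5-fold were thus seen in the bright TNKS2 probe set alone, and where its probes lie in the transcript is not given in the sources used here.

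TNKS, the paralogue of TNKS2, stayed near its Control level. Its brightest probe set read 7.75 in Control, 7.66 in WT and 7.75 in delta72, differences of -0.10 and -0.0056 from Control. A second probe set above the filter read 6.27, 6.38 and 6.42, on the other side of Control (0.11 and 0.15), and the SD over both was 0.14 with WT and 0.11 with delta72. These TNKS probe sets thus disagreed in sign, with an SD below the pooled probe SD of 0.17 with WT and 0.15 with delta72. Over all 4 TNKS probe sets the differences ran from -0.15 to 0.15 in the 3 comparisons.

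RNF146, the ligase downstream of the tankyrases, was higher on both LOXL2 arrays. Its only probe set, 11754525_s_at, read 8.39 in Control, 8.82 in WT and 8.79 in delta72. The Control array was low and the LOXL2 arrays lay together. The differences from Control were 0.43 (1.34-fold) and 0.40 (1.32-fold), beyond the largest background probe set difference but under 1.5-fold, and the forms differed by -0.03. Of the 12232 genes, 8.14% differed at least as much in either direction with WT and 6.48% with delta72. The suffix s marks a probe set that Affymetrix designed against sequence shared by several transcripts, which may be of different genes.

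The axin genes showed little. AXIN1, the constitutive scaffold, had 1 probe set, at 6.99 in Control, 6.88 in WT and 6.93 in delta72, with differences of -0.10 and -0.06. These are smaller than the probe error of 0.17 and 0.15. AXIN2, the feedback axin and a widely used readout of beta-catenin activity, had 3 probe sets with means of 4.19, 3.61 and 3.06, all below the filter. They read 4.06, 4.32 and 4.18 for 11718453_a_at, 3.68, 3.40 and 3.76 for 11718451_a_at, and 3.19, 2.93 and 3.05 for 11718452_at, in the order Control, WT and delta72. With WT they split, 1 higher by 0.26 and the others at -0.28 and -0.26, and with delta72 they lay between -0.14 and 0.12. The dim AXIN2 probe sets gave no common direction.

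ZNRF3, selected like TNKS2 on the difference between the forms, differed there in the opposite direction. Its only probe set, 11725537_at, read 5.41 in Control, 6.0 in WT and 5.37 in delta72. The WT array was high and the other arrays were level. The difference from Control was 0.59 with WT (1.5-fold) and -0.03 with delta72, and delta72 lay 0.62 below WT (1.54-fold). ZNRF3 ranked 4th lowest of 12232 genes between the forms, beside TADA2A at -0.67 and LRRC74A at -0.61. Its mean of 5.59 lay close to the filter value. No further probe set was there to check it. With the arrays set to a common median, ZNRF3 lay 0.55 above Control with WT, under 1.5-fold.

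RNF43, the paralogue of ZNRF3, was level. Its brightest probe set read 7.84 in Control, 7.84 in WT and 7.92 in delta72, with differences of -0.0016 and 0.08. All 4 RNF43 probe sets above the filter stayed between -0.18 and -0.0016 with WT and between -0.19 and 0.08 with delta72. The dimmest of its 6 probe sets, 11758834_at, read 4.48, 4.80 and 4.5, higher in WT alone by 0.32, below the filter.

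LGR4, the R-spondin receptor gene, was lower on both LOXL2 arrays by its bright probe set. This one, 11743626_s_at, read 8.66 in Control, 8.06 in WT and 7.93 in delta72. Control was the high array and the LOXL2 arrays lay close together. The differences were -0.60 (1.52-fold lower) with WT and -0.73 (1.65-fold lower) with delta72, while the forms differed by -0.13. This probe set also carries the suffix s. Including LGR4, 96 genes were as low with WT and 25 with delta72. The second probe set, 11743625_a_at, read 5.44, 5.38 and 5.46, just above the filter, and differed by -0.06 and 0.02. The SD over both was 0.38 with WT and 0.53 with delta72, above the pooled probe error, and the median over them was -0.33 and -0.35, under 1.5-fold.

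CTNNB1, which encodes beta-catenin, was the most densely probed member. Its brightest probe set, 11722167_s_at, read 11.36 in Control, 11.25 in WT and 11.22 in delta72, differences of -0.11 and -0.14. It also carries the suffix s. All 8 probe sets read lower than Control on both arrays. With WT they ran from -0.29 to -0.02 (SD 0.10) and with delta72 from -0.38 to -0.0033 (SD 0.12). The lowest differences came from 11747387_a_at, at 9.43, 9.14 and 9.15, and from 11747388_x_at, at 8.81, 8.58 and 8.43, whose numbers are consecutive. The suffix x, carried by 11747388_x_at among others, marks probe sets with probes that can match other sequences. The probe sets of a gene share its transcripts and are not independent. The lowering of the brightest probe set was within the range of the hybridisation spikes, and their part in it was not tested.

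TCF7L2, the TCF factor of the set, differed little in its bright probe set, which read 9.15 in Control, 9.08 in WT and 8.89 in delta72. The differences were -0.07 and -0.26 (1.2-fold lower), and -0.19 between the forms. The 3 probe sets above the filter disagreed in sign with WT, from -0.23 to 0.07, and were all lower with delta72, from -0.26 to -0.03. The other 4 of its 7 probe sets were dim and ran from -0.34 to 0.37 with WT.

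**Figure D2:**
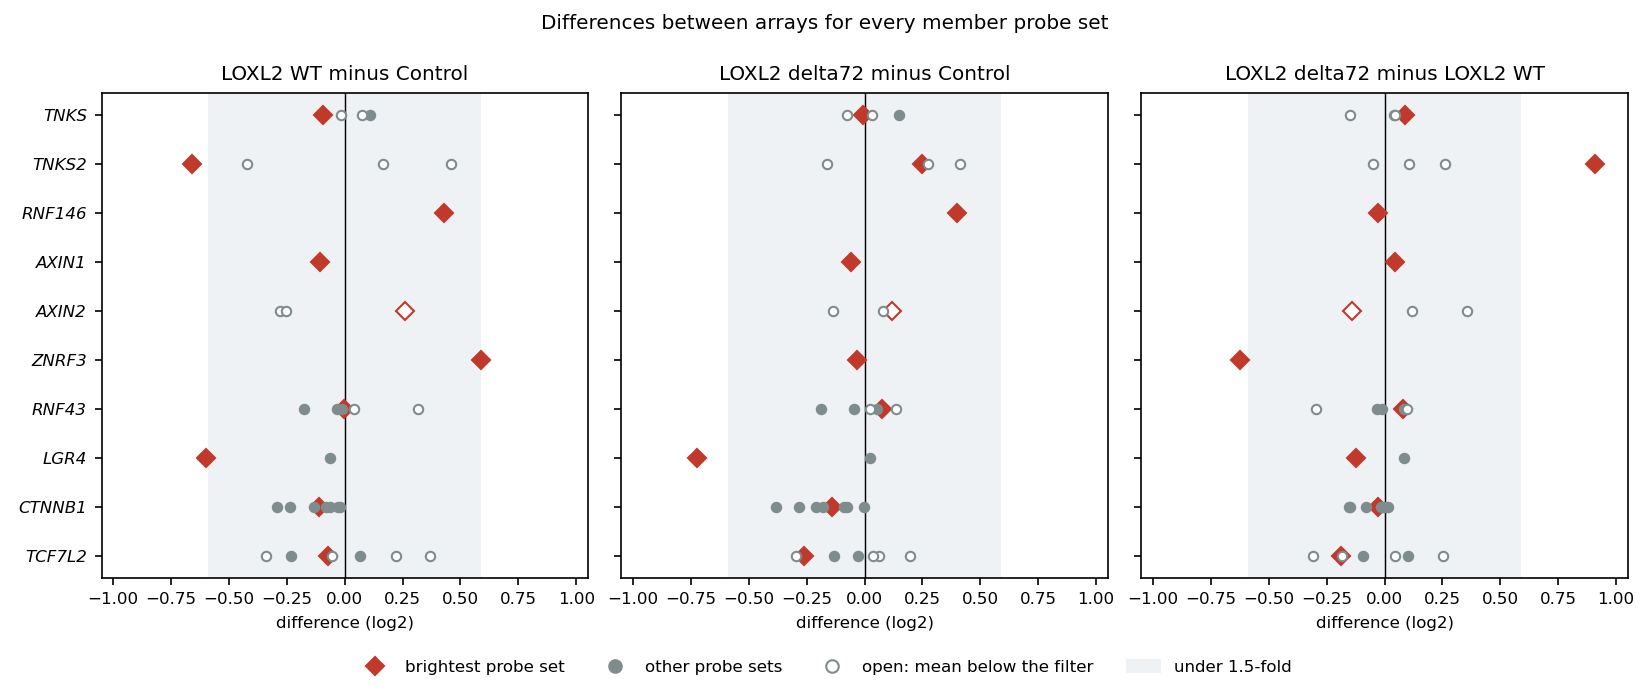
Log2 difference between arrays (horizontal axis) for each probe set of the 10 genes (rows) in the 3 comparisons; diamonds are the brightest probe sets, open symbols have means below the filter, and the band covers differences under 1.5-fold. The diamond of TNKS2 lies below its other probe sets with WT (-0.66), among them with delta72 (0.25) and above them between the forms (0.91), and the 8 CTNNB1 points lie left of zero in both comparisons with Control.

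Counted together, 3 of the 9 genes above the filter were at least 1.5-fold different with WT: TNKS2 and LGR4 lower and ZNRF3 higher, the last by little more than the threshold. Over all genes above the filter the share was 2.71%. With delta72 it was 1 of 9, LGR4, against 1.78% of all genes. Between the forms 2 of 9 passed, TNKS2 higher and ZNRF3 lower, against 0.221% of all genes. At 2-fold 0 of 9 passed in the 3 comparisons, against 0.278%, 0.139% and 0.0164% of all genes, and at a log2 difference of 0.32 the counts were 4, 2 and 2 of 9, against 17%, 12.2% and 2.53%. TNKS2 and ZNRF3 were selected on the WT and delta72 arrays, which these comparisons use, so nothing is read from the counts. The median over the 9 genes was -0.10 with WT, -0.03 with delta72 and -0.03 between the forms, and over all genes -0.0094, 0 and 0.0013. With WT 2 of the 9 genes were higher and 7 lower, with delta72 3 and 6, and between the forms 4 and 5, where 51.7%, 49.8% and 49.3% of all genes were lower.

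**Figure D3:**
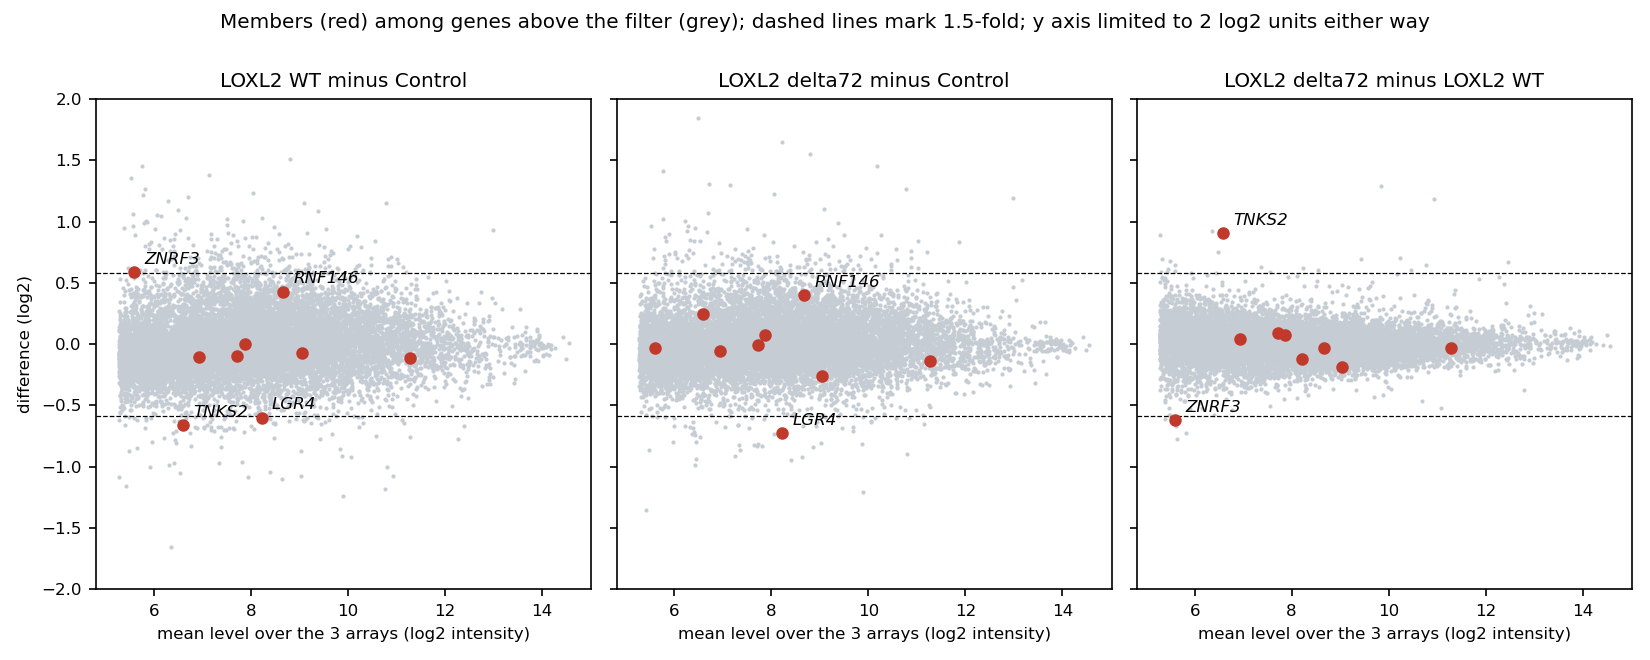
Log2 difference (vertical axis) against mean log2 level over the 3 arrays (horizontal axis) for the 12232 genes above the filter in grey and the 9 genes of the set in red, with 1.5-fold marked by dashed lines. LOXL2 lies beyond the axis in both comparisons with Control. Between the forms TNKS2 is plotted at 0.91 and ZNRF3 at -0.62, the values they were selected on, and ZNRF3 lies among dim genes, whose grey cloud is wider.

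The share of genes past 1.5-fold differed with their level. Among the 2163 genes within 0.5 of the mean level of TNKS2, 0.139% were at least 1.5-fold different between the forms, which is 3 genes including TNKS2. Among the 1904 genes near the level of ZNRF3 the share was 0.683%, or 13 genes. TNKS2 and ZNRF3 were selected on this comparison, so these shares only describe the genes around them. With delta72 against Control, 1.57% of the 2361 genes near the level of LGR4 passed 1.5-fold, and with WT 2.73% of the 2268 genes near the level of RNF146.

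The genes with the most similar pattern were found by the Euclidean distance of the 2 differences from Control, over the 3 arrays. For TNKS2 they were KLHL34 (distance 0.20), TCP11L2 (0.22), NDRG1 (0.22), GPRC5A (0.23) and GLP2R (0.24). NDRG1, the brightest of these genes, read 12.54 in Control, 12.10 in WT and 12.77 in delta72. KLHL34, TCP11L2 and GLP2R had 1 probe set above the filter each. They read 4.93, 5.09 and 5.09 in WT, below the filter value of 5.27, so their likeness rests on dim values. For ZNRF3 they were SECISBP2L (0.03), GCSH (0.12), TP53I3 (0.12), C19orf73 (0.17) and SETMAR (0.17). SECISBP2L read 6.21, 6.78 and 6.20 in the same order. With 3 arrays such likeness is a description of these values.

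In the rest of the pathway, 1.5-fold differences from Control were seen in WNT7B and BLZF1 with WT, and neither passed with the median over its probe sets. Over all genes 2.71% passed with WT, 1.78% with delta72 and 0.221% between the forms, shares at which a count of 0 or 1 in a list of 20 genes or fewer says little about that list. Upstream, 1 of 12 Wnt ligand and secretion genes above the filter passed with WT, barely past the threshold at 1.5-fold. This was WNT7B, an epithelial Wnt ligand, at 7.51, 6.92 and 7.01 in Control, WT and delta72, lower by a difference of -0.59 with WT and at -0.50 with delta72. WLS, the carrier that brings Wnt proteins to the cell surface, read 9.08, 9.60 and 9.42. It was at 0.52 with WT (SD 0.28 over 4 probe sets, above the pooled 0.17) and at 0.34 with delta72. WNT7A was at -0.28 and -0.29. Of the 13 genes for Wnt receptors and R-spondins above the filter, 0 passed 1.5-fold in any comparison. RSPO1, a ligand of LGR4, was dim, at 5.40, 5.32 and 5.71, and the frizzled genes FZD8 and FZD1 were at -0.32 and 0.30 with WT. LGR5 and LGR6, the relatives of LGR4, lay below the filter. Secreted antagonists were represented by 5 genes, of which 0 passed: DKK1, which blocks the LRP co-receptors and is also a TCF target, read 10.30, 10.73 and 10.57, a difference of 0.43 with WT and 0.26 with delta72, and its partners KREMEN1 and KREMEN2 were at -0.36 and -0.24 with WT.

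Of the 20 genes in the list of the destruction complex and cytoplasmic relay, 0 passed 1.5-fold in the 3 comparisons. Their median was 0.09 with WT and 0.03 with delta72. The list also holds the corepressor genes CTBP1 and CTBP2, which are not part of that complex. APC, the scaffold that works beside axin, read 5.83, 6.21 and 5.94, the kinase gene CSNK1G1 was at 0.33 and 0.25, and CTBP2 at 0.32 and 0.13. Of the 13 nuclear partners of beta-catenin, 0 passed. The acetyltransferase genes EP300 and CREBBP were at 0.53 each with WT and at 0.20 and 0.46 with delta72. For CREBBP the SD over 5 probe sets was 0.36 with WT, above the pooled 0.17. The TLE family gene TLE5 was at -0.37 and -0.30.

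A list of TCF target genes was read apart from AXIN2, RNF43 and ZNRF3. Whether its genes follow beta-catenin in this line was not tested. Of 20 listed, 12 lay above the filter, 6 below it, LEF1 and LGR5 among them, and 2 had no probe set of a single symbol. Of the 12 above the filter, 3 were higher and 9 lower with WT, 6 and 6 with delta72, and 5 and 7 between the forms. In these comparisons 0 of the 12 passed 1.5-fold. Their medians were -0.12, 0.00098 and -0.02. EPHB3, an ephrin receptor gene, was at -0.47 with WT and -0.26 with delta72, DKK1 on the higher side as given above, and PPARD at -0.14 and 0.12. The target genes thus lay on both sides of Control. ZNRF3, selected on these arrays, was higher with WT in its dim probe set, while RNF43 was level.

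Over 14 partners and substrates of tankyrase above the filter, the median lay at -0.11 with WT and at -0.07 with delta72. Only BLZF1 among them passed 1.5-fold with WT. BLZF1, which encodes a structural protein of the Golgi, read 7.46, 8.11 and 7.93, a difference of 0.64 with WT (SD 0.17 over 4 probe sets) and 0.47 with delta72. USP25, a deubiquitinase that stabilises tankyrases, was at -0.37 (SD 0.29 over 2 probe sets, above the pooled 0.17) and -0.27. The angiomotin-like gene AMOTL2 was at -0.32 and -0.33. In the PARP family, to which the tankyrases belong, 0 of 15 genes passed. PARP11 was at 0.51 and 0.28, PARP10 at -0.13 and 0.21, and PARP9 at 0.13 and -0.16. Between the forms the PARP genes ran from -0.29 to 0.34.

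**Figure D4:**
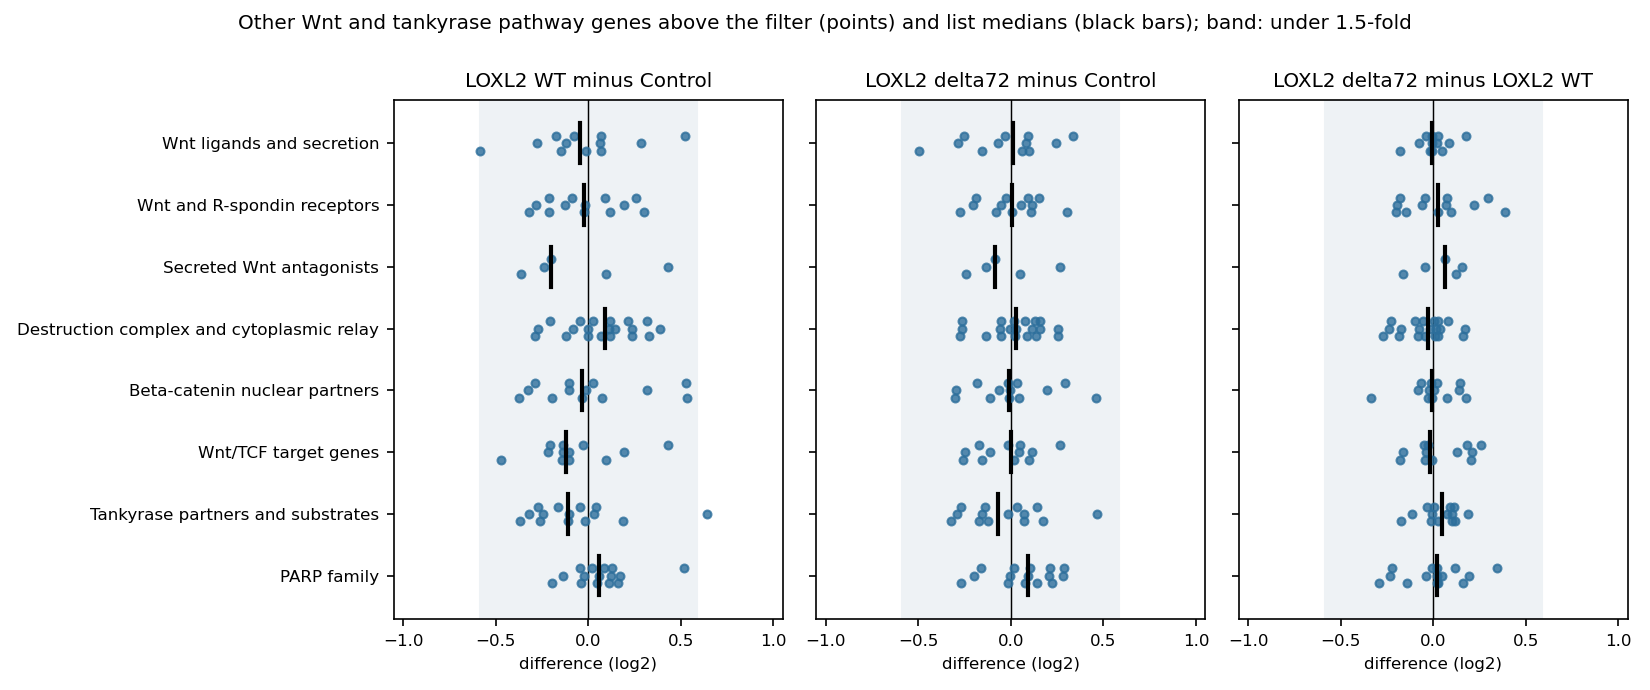
Log2 difference between arrays (horizontal axis) for the other Wnt and tankyrase pathway genes above the filter, by list (rows), in the 3 comparisons; points are genes, black bars list medians, and the band covers differences under 1.5-fold. WNT7B at -0.59 and BLZF1 at 0.64 with WT are the points outside the band.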

How the data were processed

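RNA of 3 samples was measured on 1 Affymetrix 3' expression array each, from 100 ng of total RNA per the labels' protocols. Per the submitters' processing notes, the software was Partek and Affymetrix Expression Console; versions, background correction and normalization method are not stated there. From their range (2.07 to 14.56) the values deposited by the authors were read as log2 intensities, already on near-common medians (5.93 to 5.95). Symbols came from the platform annotation, and the Entrez identifiers of all 37 probe sets matched the RefSeq table (GRCh38.p14).

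Differences were computed with Python 3.11.15, pandas 2.3.3 and numpy 2.4.6, and the counting was tested on simulated data. The genes and lists were chosen with earlier results of these data known. All 10 genes are named, with the 3 genes of each list that had the largest difference and the 5 genes nearest in pattern to TNKS2 and ZNRF3. The motifs ACGTG and CCAAT, the genes of similar level and the median of differences over probe sets were added after seeing the data. Alternatives were another scaling (common median, quantile, or lowess by statsmodels 0.14.6), the median over probe sets, other filters and other folds. The number of arrays limits the precision.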

Additional observations from a re-analysis of the deposited data

Results flagged for a closer look

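In its brightest probe set TNKS2 lay on opposite sides of Control with the 2 forms, at -0.66 with LOXL2 WT and at 0.25 with LOXL2 delta72. Both values exceeded the largest background probe set difference (0.29 and 0.17), but hybridisation spikes differed by up to 0.32 with delta72. TNKS2 was selected on its difference between the forms, which favours values that lie far apart, so these values are a description only. Of the 3 dimmer TNKS2 probe sets, 0 lay below Control with WT and above it with delta72, and between the forms they differed by 0.26, 0.11 and -0.05, against 0.91. With the median of the levels of the 4 probe sets the difference was -0.13 with WT and 0.05 with delta72. The difference between the forms was not tested, since each has 1 array.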

How the results depend on the processing

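A single-gene difference was taken as kept when it moved by less than the pooled SD over probe sets, a list median likewise, and a count when it stayed within 1.5 times. By these limits 169 of 183 recomputed single-gene differences and 366 of 384 recomputed counts and medians were kept. A count of 3 members that became 2 (common median, with WT) or 4 (log2 difference of 0.32) is within the limits. Many of the 183 could not move, because another filter leaves the difference of a gene that stays in unchanged. A median over probe sets also leaves AXIN1, RNF146 and ZNRF3 unchanged, with 1 probe set each. The share kept is therefore no measure of stability. The single-gene values that moved did so with a median over probe sets. With the median of the levels on each array, which can take different probe sets on different arrays, TNKS2 was at -0.13, 0.05 and 0.18 against -0.66, 0.25 and 0.91, LGR4 at -0.33 and -0.35 against -0.60 and -0.73, CTNNB1 with delta72 at -0.30 against -0.14, RNF43 with delta72 at -0.12 against 0.08, and TCF7L2 at -0.34 with WT against -0.07 and at 0.05 between the forms against -0.19. With the median of the differences, an alternative chosen after seeing the data, the values that moved were LGR4, as above, TNKS2 with WT and between the forms, as above, and TCF7L2 with delta72 (-0.03 against -0.26). With either median the members at least 1.5-fold different numbered 1 with WT, 0 with delta72 and 1 between the forms, against 3, 1 and 2, and 0 tankyrase partners and 0 Wnt ligand genes passed with WT, against 1 and 1; with the median of levels 1 nuclear partner passed, against 0. With the median of differences 1.69%, 1.07% and 0.123% of all genes passed, against 2.71%, 1.78% and 0.221%, and between the forms 0.309% passed without a filter and 0.12% with the 60th percentile filter. With the 60th percentile filter (log2 6.65), which removes TNKS2 and ZNRF3, the members numbered 1 with WT and 0 between the forms. At 2-fold 0 members passed in the 3 comparisons, and at a log2 difference of 0.32 2 passed with delta72. After lowess 0 Wnt ligand genes passed with WT. A common median lowered the share of higher genes among those passing 1.5-fold from 68.1% to 54.9% with WT and from 72.0% to 61.5% with delta72, and lowess lowered it from 81.5% to 68.0% between the forms. The order of members by level was not run, since levels of different probe sets are not comparable. No paired analysis was possible because each condition has 1 array. Signal over background limits all members except the brightest CTNNB1 probe set, and most of all the dim probe sets of AXIN2 and TNKS2.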
